A study of Mus musculus with 4 samples.

Results

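The transcripts described here are the 4 adult haemoglobin chains *Hba-a1*, *Hba-a2*, *Hbb-bs* and *Hbb-bt* and the erythroid enzyme *Alas2*, taken by their symbols from the rows of a table of gene expression in the mouse heart. These 5 rows, all of them found once, stood among 55401 rows. The table held 1 library from each of 4 mouse hearts, 2 from *Ctcf* heterozygous animals and 2 from wild-type animals, and all 4 mice were 8 weeks old. The heterozygous mice carried the CTCF R567W substitution, made by CRISPR/Cas9 editing in C57BL/6N mice, on 1 allele. CTCF is a zinc finger protein that binds DNA and shapes chromatin loops, and the study asked how its mutation changes gene expression in the heart. The libraries were made from polyadenylated RNA of whole heart tissue, so each value is an average over every cell in the piece, blood included, and fewer cells of a type cannot be told apart from less RNA per cell. Whether the adult hearts were rinsed or perfused is not given in the sources used here.

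Haemoglobin is the oxygen carrier of red blood cells and is built from a pair of alpha chains and a pair of beta chains, each holding a haem group. The chains are made from loci on separate chromosomes, which are switched on together as red cell precursors mature. *Alas2* encodes the erythroid form of the first and rate-limiting enzyme of haem synthesis, while other tissues use *Alas1*. Mature mouse red cells have no nucleus, and the youngest of them, the reticulocytes, still carry globin mRNA, so that globin reads in a solid organ can come from circulating red cells.

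On mm10, the build of the deposited values, GENCODE M21 places both alpha genes on the plus strand of chromosome 11, *Hba-a1* at chr11:32283511-32284465 and *Hba-a2* at chr11:32296489-32297298. Both beta genes lie on the minus strand of chromosome 7, *Hbb-bs* at chr7:103826534-103828096 and *Hbb-bt* at chr7:103812524-103813996. *Alas2* lies on the plus strand of the X chromosome at chrX:150547375-150570638. Each globin gene has 3 exons and *Alas2* has 11. The alpha chains are read from 426 coding bases and the beta chains from 441, against 1761 for *Alas2*, so the 4 globins are among the short mRNAs of the table and *Alas2* is not.

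The copies of each chain are almost the same sequence, which bears on every value given for a single copy. The coding sequences of *Hba-a1* and *Hba-a2* differed at 1 of 426 bases, C381T, counted from 1 at the start of the coding sequence with the base of *Hba-a1* first, and the longest identical run was 380 bases. Those of *Hbb-bs* and *Hbb-bt* differed at 1 of 441 bases, C417T with the base of *Hbb-bs* first, with an identical run of 416 bases. The stretches around these bases are shown because a read tells the copies apart inside the coding sequence only where it covers the capital letter, which marks the differing base in each.
Hba-a1: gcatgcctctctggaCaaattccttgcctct
Hba-a2: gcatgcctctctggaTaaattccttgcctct
Hbb-bs: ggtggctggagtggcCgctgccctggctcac
Hbb-bt: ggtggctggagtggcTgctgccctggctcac
Reads that fit both copies are shared out by estimation, so the split between *Hba-a1* and *Hba-a2*, or between *Hbb-bs* and *Hbb-bt*, is uncertain, and the sum over copies is the firmer quantity. The annotated *Hba-a1* and *Hbb-bt* models also start 161 and 73 bases upstream of the RefSeq start, against 3 bases for *Hba-a2* and 0 for *Hbb-bs*, and a longer model lowers a value given per length. The annotation release behind the deposited values is not given in the sources used here.

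Stretches of proximal promoters are shown with matches to short motifs, of which only GATAA was found in the promoters of all 5 transcripts. Whether these motifs bear on the levels in the 4 hearts was not tested. The letters searched on both strands were GATAA, bound by GATA factors, CCACCC, bound by KLF factors, CCAAT and the TATA-like ATATAA, and the motifs were chosen after the sequences had been seen. RefSeq on GRCm38.p6 gives a fixed window around each start, and the stretches below hold, in capitals, the matches that fall in them. The *Hba-a2* stretch is chr11:32296297-32296487 on the plus strand, that of *Hbb-bs* is chr7:103827933-103828143 on the minus strand and that of *Alas2* is chrX:150547257-150547372 on the plus strand, where the GATAA match reads TTATC because it lies on the other strand.
Hba-a2: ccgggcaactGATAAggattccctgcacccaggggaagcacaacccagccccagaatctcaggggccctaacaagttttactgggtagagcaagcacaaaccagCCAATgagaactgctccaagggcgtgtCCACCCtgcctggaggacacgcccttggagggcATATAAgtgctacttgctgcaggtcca
Hbb-bs: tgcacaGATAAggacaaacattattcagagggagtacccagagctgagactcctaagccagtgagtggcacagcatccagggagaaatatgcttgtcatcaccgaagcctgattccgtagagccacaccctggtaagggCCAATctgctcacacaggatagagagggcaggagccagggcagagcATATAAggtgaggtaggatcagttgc
Alas2: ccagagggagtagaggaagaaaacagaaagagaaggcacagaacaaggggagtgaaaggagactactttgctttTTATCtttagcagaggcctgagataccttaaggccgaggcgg
All 5 promoters held 1 match to GATAA, as did 25.4% of the 32851 mouse promoters of the same length. CCACCC was found once in each alpha promoter and in *Hbb-bt*, 3 times in *Alas2* and not in *Hbb-bs*, and in 31.5% of all promoters. Only these exact letters were counted, so the similar run ccacaccc ahead of CCAAT in the *Hbb-bs* stretch was not. Each globin promoter held ATATAA once, against 9.82% of all, and at least 1 CCAAT, against 37.4% of all, while *Alas2* held neither. The letters AGGNGGC, the core of the CTCF motif, were found once in *Alas2* and in none of the 4 globin promoters, against 29.4% of all. The windows of the alpha genes shared an identical run of 297 bases, so they count as 1 sequence, whereas the longest run shared by *Hbb-bs* and *Hbb-bt* was 14 bases. GENCODE also holds an *Hbb-bs* transcript that starts further upstream, so the stretch printed for *Hbb-bs* lies partly inside the annotated gene. A match here describes letters only, and binding was not measured at these sites.

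Levels are in TPM, the share of all transcripts in a library given per transcript length. The deposited TPM sum to the same total in each library, and 61.1% to 68.6% of it was taken by genes of the mitochondrial genome, so a level also moves with that share. The scaled TPM are the deposited values divided by a factor for each library, the median ratio over expressed genes, which was 1.09 and 1.26 for wild-type hearts 1 and 2 and 0.818 and 0.903 for heterozygous hearts 1 and 2. Read totals are not given with TPM, so the counting error of each value is unknown. *Ctcf* itself stood at 6.66 and 7.59 TPM in wild type and 6.14 and 5.20 TPM in heterozygotes, and a substitution need not change the level of its mRNA. On the scaled log2 values its difference, heterozygous minus wild type, was 0.10 (SE 0.16, n = 2 and 2) with a limma adjusted p of 0.814, so scaling turned its direction.

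The alpha chain transcripts were abundant in every heart and more than 2-fold apart between the heterozygous hearts. *Hba-a2* was listed at 355 TPM in wild-type heart 1, 445 TPM in wild-type heart 2, 291 TPM in heterozygous heart 1 and 699 TPM in heterozygous heart 2. The heterozygous hearts thus held both the lowest and the highest value, and the wild-type hearts lay between them. *Hba-a1* was listed at 186, 228, 141 and 374 TPM in the same order, with the same ranking. After scaling, *Hba-a2* stood at 326, 353, 356 and 774 and *Hba-a1* at 171, 181, 173 and 414 scaled TPM. On that scale 3 hearts were close together for both alpha genes and heterozygous heart 2 stood apart above them.

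*Hbb-bs*, an adult beta chain, was the most abundant of the 5 transcripts in every library. It was listed at 423 TPM in wild-type heart 1, 510.4 TPM in wild-type heart 2, 325 TPM in heterozygous heart 1 and 751 TPM in heterozygous heart 2. *Hbb-bt*, the other adult beta chain, stood far lower at 46.1, 57.3, 30.2 and 86.7 TPM. Scaled, *Hbb-bs* stood at 388, 405, 397 and 831 and *Hbb-bt* at 42.4, 45.4, 36.98 and 96.0 scaled TPM. The beta chains therefore repeated the picture of the alpha chains, with heterozygous heart 1 beside the wild-type hearts and heterozygous heart 2 above all others.

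*Alas2* was far less abundant and followed the same order on the deposited scale. It was listed at 2.46 and 2.7 TPM in wild type and at 1.36 and 4.08 TPM in the heterozygotes, and after scaling at 2.26, 2.14, 1.66 and 4.52 scaled TPM. As deposited, all 5 transcripts had the order heterozygous heart 1, wild-type heart 1, wild-type heart 2, heterozygous heart 2 from low to high. How many of all tested genes had this order was not counted. After scaling, heterozygous heart 2 stayed highest for all 5, but the order below it differed between them. Wild-type heart 1 was then lowest for *Hba-a1*, *Hba-a2* and *Hbb-bs*, and heterozygous heart 1 for *Hbb-bt* and *Alas2*. The Pearson correlation between any pair of the 5 over the 4 libraries lay between 0.936 and 0.9997, a description over 4 points that share library scaling and, within a chain, reads.

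**Figure D1:**
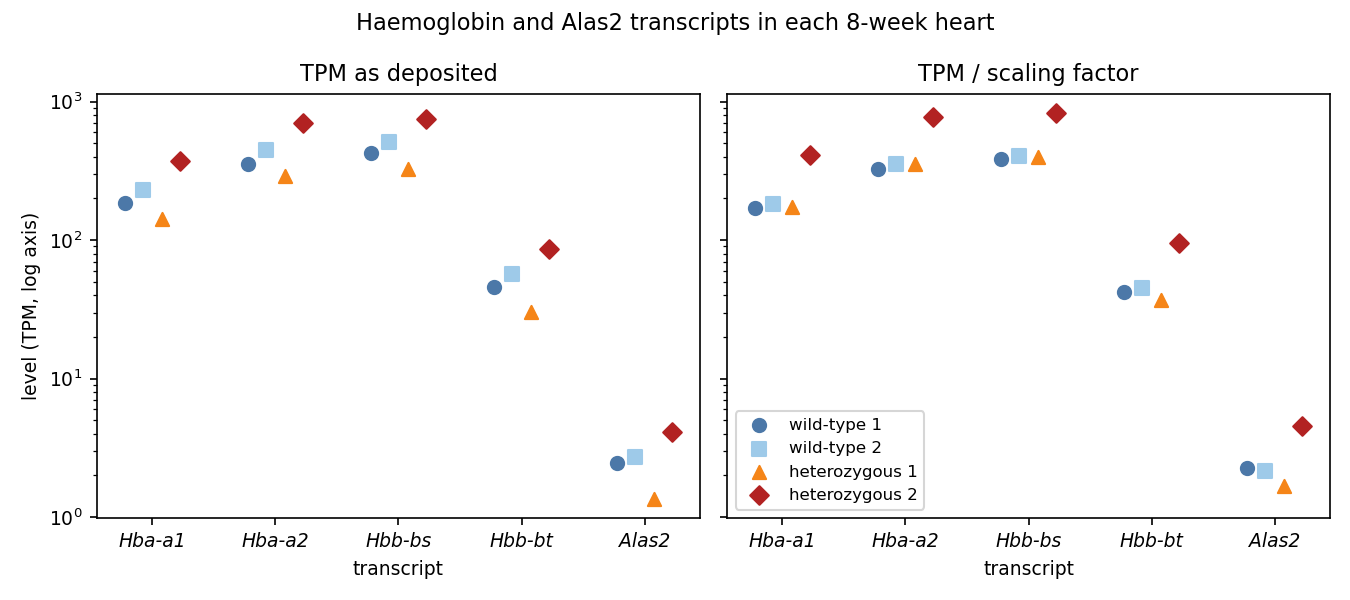
Level of each transcript in each of the 4 hearts, on a log axis, as deposited TPM (left) and as TPM divided by the library's scaling factor (right); each point is 1 library. Heterozygous heart 2 is the highest point for all 5 transcripts on both scales, for example 774 against 326 to 356 scaled TPM for *Hba-a2*.

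Between the genotypes, none of the 5 transcripts passed the test. As deposited, the mean level of *Hba-a1* was 207 ± 30.2 TPM in wild-type and 258 ± 165 TPM in heterozygous hearts (SD, n = 2 each), that of *Hba-a2* was 399.7 ± 63.7 and 495 ± 289 TPM, and that of *Hbb-bs* was 466.5 ± 62.1 and 538 ± 301 TPM. For *Hbb-bt* the means were 51.7 ± 7.88 and 58.5 ± 39.9 TPM, and for *Alas2* they were 2.58 ± 0.170 and 2.72 ± 1.92 TPM. The SD of the heterozygous hearts exceeded the difference between the genotypes for each of the 5. On the scaled values the SD was 11.8 scaled TPM in wild-type and 307 scaled TPM in heterozygous hearts for *Hbb-bs*, and 0.0836 and 2.02 scaled TPM for *Alas2*.

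With limma on log2(scaled TPM + 1), the difference of heterozygous minus wild type was 0.60 (SE 0.39) for *Hba-a1*, with a 95% interval of −0.33 to 1.53 and an adjusted p of 0.534. It was 0.63 (SE 0.36, interval −0.23 to 1.49, adjusted p 0.493) for *Hba-a2* and 0.53 (SE 0.35, interval −0.29 to 1.36, adjusted p 0.536) for *Hbb-bs*. It was 0.44 (SE 0.41, interval −0.54 to 1.41, adjusted p 0.667) for *Hbb-bt* and 0.26 (SE 0.32, interval −0.50 to 1.02, adjusted p 0.746) for *Alas2*. All 5 intervals spanned 0, and their upper bounds leave room for a heterozygous level more than 2-fold the wild-type level. A call needed an adjusted p below 0.05 and a change above 1.5-fold. By that rule 0 of 5 members were called, and 0 of 5 had an unadjusted p below 0.05, against 2 called genes (0.0199%) and 1224 genes at an unadjusted p below 0.05 of the 10036 tested. *Hba-a2* was the 1 member of 5 whose genotypes did not overlap on the scaled values, by 353 against 356 scaled TPM, beside 47.0% of all tested genes without overlap. The median difference of the 5 was 0.53, against −0.005 for all tested genes.

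The positive differences rested on heterozygous heart 2. Without it, the scaled log2 difference was −0.02 for *Hba-a1*, 0.07 for *Hba-a2*, 0.002 for *Hbb-bs*, −0.24 for *Hbb-bt* and −0.27 for *Alas2*, so 2 of 5 members were higher and 3 lower in the remaining heterozygous heart. Without heterozygous heart 1 the differences were 1.23, 1.19, 1.07, 1.12 and 0.80 in the same order, all 5 with an unadjusted limma p below 0.05, as had 1543 of the 10228 genes tested in that fit (15.1%), and none with an adjusted p below 0.05. In both of these fits the lone heterozygous heart is assumed to vary as much as the wild-type hearts. On the deposited TPM, where the median difference of all tested genes was −0.35, the difference was 0.16 for *Hba-a1*, 0.18 for *Hba-a2*, 0.09 for *Hbb-bs*, −0.001 for *Hbb-bt* and −0.05 for *Alas2*. The replicates are separate libraries of one genotype. With nothing said on litters or on the day or batch of extraction, the p-values measure only the spread between these libraries.

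The difference between the heterozygous hearts was large for all 5 transcripts. On the deposited scale heterozygous heart 2 was above heterozygous heart 1 by 2.65-fold for *Hba-a1*, 2.40-fold for *Hba-a2*, 2.31-fold for *Hbb-bs*, 2.87-fold for *Hbb-bt* and 3.00-fold for *Alas2*. After scaling these ratios were 2.40, 2.17, 2.09, 2.60 and 2.72. As differences of log2(scaled TPM + 1) they were 1.26, 1.12, 1.06, 1.35 and 1.05, and all 5 members passed 2-fold, which 83 of the 10036 tested genes did (0.827%). Between 40 and 71 tested genes had a larger difference than each member. The median was 1.12 for the members and 0.007 for all tested genes. No test is given, since this sets 1 heart against 1 heart.

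The wild-type hearts differed far less. On the deposited scale wild-type heart 2 was 1.23-fold above heart 1 for *Hba-a1*, 1.25-fold for *Hba-a2*, 1.21-fold for *Hbb-bs*, 1.24-fold for *Hbb-bt* and 1.10-fold for *Alas2*. After scaling the ratios were between 0.948 for *Alas2* and 1.08 for *Hba-a2*, and 0 of 5 members passed 2-fold, beside 0.468% of all tested genes. The median log2 difference was 0.09 for the members and 0.008 for all tested genes.

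**Figure D2:**
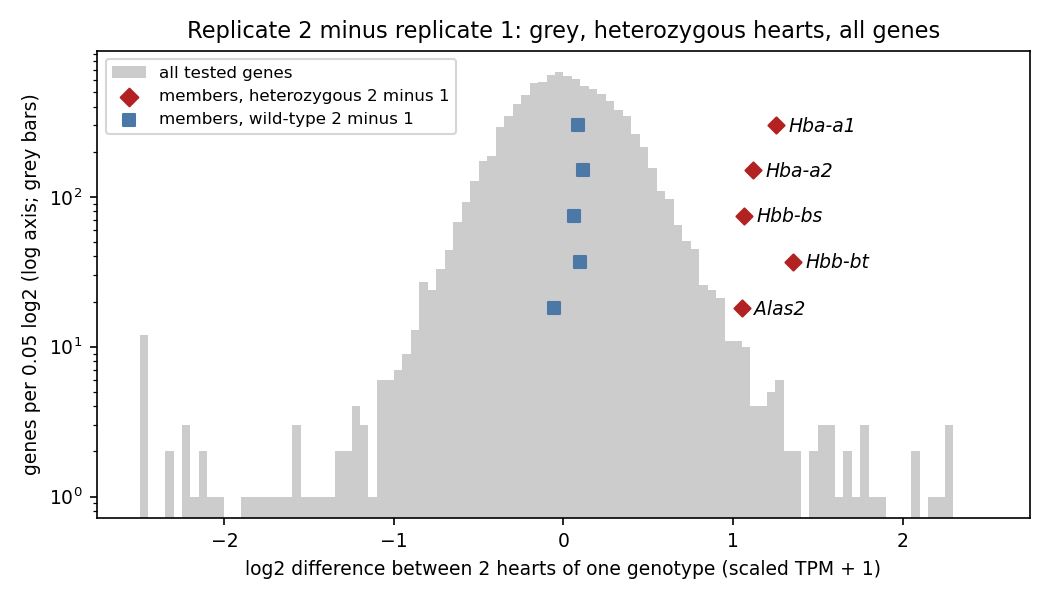
Log2 difference of scaled TPM + 1 between the hearts of one genotype, heart 2 minus heart 1. Grey bars count all tested genes for the heterozygous hearts on a log axis, with values beyond the axis gathered in the outermost bar; red diamonds are the 5 transcripts in the heterozygous hearts and blue squares the same in the wild-type hearts, set at arbitrary heights. The diamonds lie between 1.05 and 1.35 and the squares between −0.05 and 0.11.

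The copies of each chain share reads, so their sum was also taken. The 4 globins together summed to 1009 and 1241 TPM in wild type and to 788 and 1911 TPM in heterozygotes, or 0.101%, 0.124%, 0.0788% and 0.191% of all TPM. An exact permutation test over the libraries gave p = 1 for the genotypes, with a difference between the mean log2 sums of 0.13, and the smallest p that 2 against 2 libraries can give is 0.333. Scaled, the sums were 928, 985, 964 and 2116 scaled TPM, with a difference of 0.58 (exact p = 0.667), and with mitochondrial genes removed the difference was 0.25 (exact p = 1). Counted among the TPM of genes outside the mitochondrial genome they were 0.286%, 0.319%, 0.251% and 0.511%. Heterozygous heart 2 was highest by each of these measures, and heterozygous heart 1 was lowest by each measure except the scaled sum.

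Ratios within a library do not depend on its scaling. The balance of the chains was much steadier than their level. The alpha to beta ratio was 1.15 and 1.19 in wild type and 1.22 and 1.28 in heterozygotes, a span of 1.11-fold where the globin sum spanned 2.43-fold. The genotypes did not overlap for this ratio, and the log2 difference was 0.10 (p = 0.333 by the same exact test, two-sided, which is the smallest it can give). *Hba-a1* made 34.4%, 33.9%, 32.7% and 34.9% of the alpha TPM and *Hbb-bs* made 90.2%, 89.9%, 91.5% and 89.6% of the beta TPM, with exact p = 1 for both. The copies of a chain thus kept nearly the same share in all 4 hearts. *Alas2* stood at 2.44, 2.18, 1.73 and 2.14 TPM per 1000 globin TPM. That ratio was lower in both heterozygous hearts, by 0.26 on the log2 scale (exact p = 0.333). Across these 4 ratios and the globin sum, 5 comparisons in all, no p-value could pass 0.05, with or without adjustment.

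**Figure D3:**
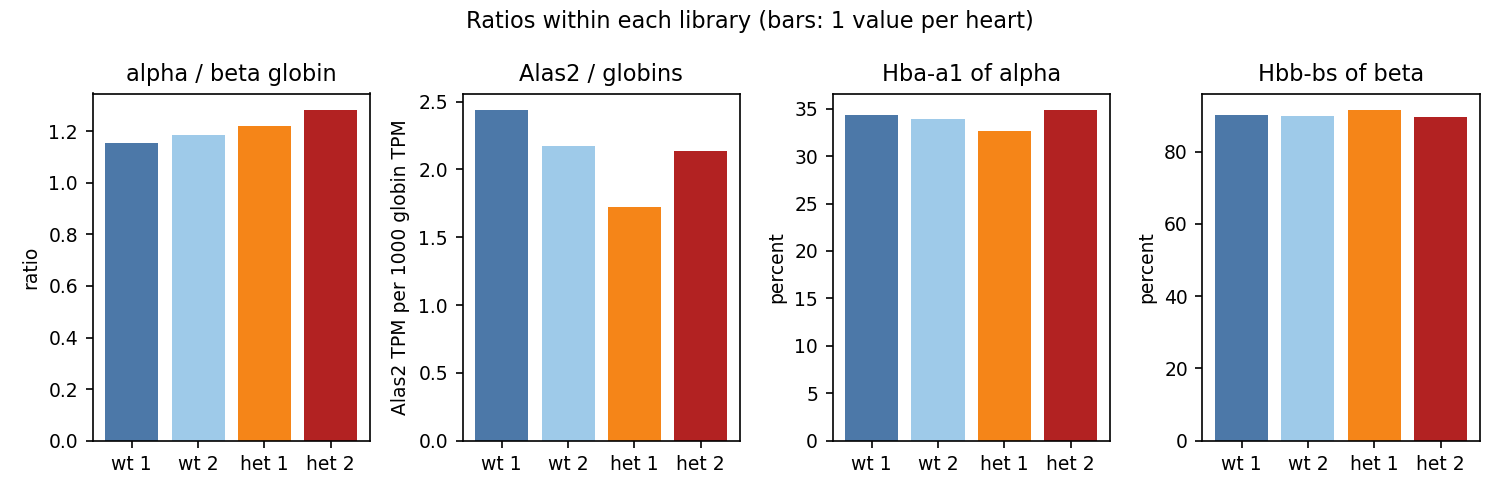
Ratios computed inside each library, 1 bar per heart (wt, wild type; het, heterozygous): alpha over beta globin TPM, *Alas2* TPM per 1000 globin TPM, *Hba-a1* as percent of alpha TPM and *Hbb-bs* as percent of beta TPM. The alpha to beta ratio stays between 1.15 and 1.28 while *Alas2* per globin ranges from 1.73 to 2.44.

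Several transcripts that define red cell precursors were at or near 0 in these hearts, and those named here were picked after their values were seen. A mean below 1 TPM was found for 8 of 17 listed genes of the red cell membrane, 9 of 21 of reticulocytes and late erythroid cells and 6 of 10 erythroid transcription factors and cofactors, and the others, many of which other cells use too, were above it. Of 11 further globin genes 7 were listed at 0 in every library, among them the embryonic chains *Hba-x*, *Hbb-y* and *Hbb-bh1*. *Slc4a1*, the anion exchanger of the red cell membrane, was listed at 0, 0.02, 0.02 and 0.02 TPM. The erythroid transcription factors *Gata1* and *Klf1* did not exceed 0.05 TPM in any heart, and *Rhag*, *Car1*, *Hemgn* and *Trim58* were listed at 0 in all 4. *Bpgm*, the enzyme that makes bisphosphoglycerate, which lowers the oxygen affinity of haemoglobin in red cells, was listed at 2.14, 2.26, 0.89 and 2.01 TPM, with heterozygous heart 1 lowest and the other hearts alike.

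The gene lists around haemoglobin contained no called gene. Differences and counts of higher and lower genes in them are on the scaled log2 values, where the median of all tested genes was −0.005, against −0.35 on the deposited TPM. The 8 enzymes of haem synthesis shared with other tissues were all tested, and 3 were higher and 5 lower in heterozygous hearts, with 1 at an unadjusted p below 0.05 and a median difference of −0.05. *Ppox*, protoporphyrinogen oxidase, had the largest positive difference of the list, with 24.0 and 23.3 scaled TPM in wild-type and 32.5 and 31.1 scaled TPM in heterozygous hearts (log2 difference 0.41, adjusted p 0.382), while its deposited means were nearly equal. *Urod*, uroporphyrinogen decarboxylase, had the largest negative difference, with 22.5 and 21.4 against 17.4 and 20.6 scaled TPM (−0.20, adjusted p 0.626). Between the heterozygous hearts the median of these 8 enzymes was 0.04, against 1.12 for the members. The ubiquitous part of the pathway therefore did not show the step between those hearts that *Alas2* showed.

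Of 9 tested genes of haem and iron supply 1 was higher and 8 lower in heterozygous hearts, with a median difference of −0.11. *Slc25a37*, the mitochondrial iron importer mitoferrin, stood at 10.2, 11.1, 9.14 and 7.82 TPM, lowest in heterozygous heart 2. It was the 1 higher gene on the scaled values (log2 difference 0.10, adjusted p 0.812), but lower in heterozygous hearts as deposited. *Tmem14c*, a transporter of haem precursors, stood at 25.2, 33.9, 14.4 and 20.7 TPM with a log2 difference of −0.30 (adjusted p 0.532). The genes of this list did not move one way between the heterozygous hearts: 4 of 9 were higher in heart 2, beside 51.1% of all tested genes. The differences ran from −0.46 to 0.77, and the median was −0.02.

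Among 9 tested genes of the red cell membrane and its skeleton, 3 were higher and 6 lower in heterozygous hearts, with a median of −0.05. *Ank1*, ankyrin, stood at 45.4, 59.3, 31.1 and 34.0 TPM (log2 difference −0.22, adjusted p 0.589). It did not show the step between the heterozygous hearts, where its log2 difference was −0.01. Of 12 tested genes of reticulocytes and late erythroid cells 10 were higher in heterozygous heart 2 than in heart 1, beside 51.1% of all tested genes. Their median difference was 0.36 and the largest was 0.69, for *Prdx2*. *Prdx2*, a peroxiredoxin abundant in red cells and present in other cells, stood at 80.5, 82.3, 44.5 and 79.7 TPM, and its genotype difference was −0.004 (adjusted p 0.995). *Cat*, catalase, had the largest negative genotype difference of that list, at 11.0 and 14.7 against 5.04 and 6.59 TPM (−0.62, adjusted p 0.331). No gene of these lists passed 2-fold between the heterozygous hearts.

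Of the 4 tested erythroid transcription factors and cofactors, *Tal1* stood at 1.57, 2.01, 1.91 and 1.58 TPM (log2 difference 0.27 on the scaled values, adjusted p 0.495), with the deposited mean slightly lower in heterozygous hearts. *Ldb1*, a cofactor that joins distant elements of the globin loci in red cell precursors and acts in many other cells, stood at 15.8, 20.8, 9.35 and 12.8 TPM (−0.27, adjusted p 0.536). Of 7 tested genes for the clearance of haemoglobin, haem and iron, 3 were higher and 4 lower. *Slc40a1*, the iron exporter ferroportin, was lower in both heterozygous hearts, at 0.56 and 0.53 TPM against 2.03 and 2.46 TPM, with a log2 difference of −0.83 that missed the threshold (adjusted p 0.208). *Blvra*, a biliverdin reductase, stood at 5.03, 5.40, 4.41 and 4.72 TPM (0.21 on the scaled values, adjusted p 0.531, but lower in heterozygous hearts as deposited), and *Lrp1*, the receptor for the haem and haemopexin complex, differed by 0.16 (adjusted p 0.707), likewise positive after scaling only. Myoglobin, *Mb*, the oxygen store of cardiac muscle and the most abundant globin of the heart, stood at 2755, 3199.9, 1520.1 and 2303.5 TPM, with a log2 difference of −0.22 (adjusted p 0.707). Between the heterozygous hearts it differed by 0.46, less than each of the haemoglobin chains.

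Transcripts of other blood cells were low and are given beside the haemoglobins because blood carries them too. The 10 neutrophil markers were all below a mean of 1 TPM, 3 of them listed at 0 in every heart, and their sum was 2.31, 2.11, 0.61 and 2.75 TPM. The 12 lymphocyte markers summed to 8.95, 9.83, 5.23 and 8.82 TPM and the 10 platelet markers to 14.1, 20.7, 8.98 and 14.8 TPM. As deposited, all 3 sums were lowest in heterozygous heart 1, and the neutrophil sum was highest in heterozygous heart 2, where it rested on genes such as *S100a9* at 0.97 TPM against 0.12 to 0.56 TPM in the other hearts. On the scaled values the sums were 2.12, 1.67, 0.746 and 3.04 for neutrophil, 8.23, 7.80, 6.40 and 9.76 for lymphocyte and 13.0, 16.4, 11.0 and 16.4 for platelet markers, so lymphocyte markers too were highest in heterozygous heart 2 and platelet markers were as high there as in wild-type heart 2. *Igkc*, an immunoglobulin light chain, stood at 2.38, 2.19, 0.66 and 2.06 TPM and *Pf4*, platelet factor 4, at 9.66, 13.6, 5.53 and 10.8 TPM, with 0.86 and 0.74 between the heterozygous hearts on the scaled log2 values. How much of the haemoglobin difference goes with the amount of blood in the piece was not tested. Macrophage markers had a median of 0.41 between the heterozygous hearts over 7 tested genes, and endothelial markers 0.07 over 9.

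The labelled tissue was checked against its markers. Cardiomyocyte markers were high in all 4 libraries, with *Myh6*, the alpha myosin heavy chain of adult mouse heart muscle, at 10266, 11559, 7466 and 9534 TPM. The 10 cardiomyocyte markers had a median of 0.31 between the heterozygous hearts and a largest difference of 0.45, and the 7 fibroblast markers had a median of −0.18. No tested marker of these lists reached the difference of the 5 members on log2(scaled TPM + 1), a scale that understates ratios of low genes. As plain ratios, the low *Igkc* (0.807 and 2.28 scaled TPM in heterozygous hearts 1 and 2) and the untested *S100a9* (0.147 and 1.07 scaled TPM) differed by more than the members.

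**Figure D4:**
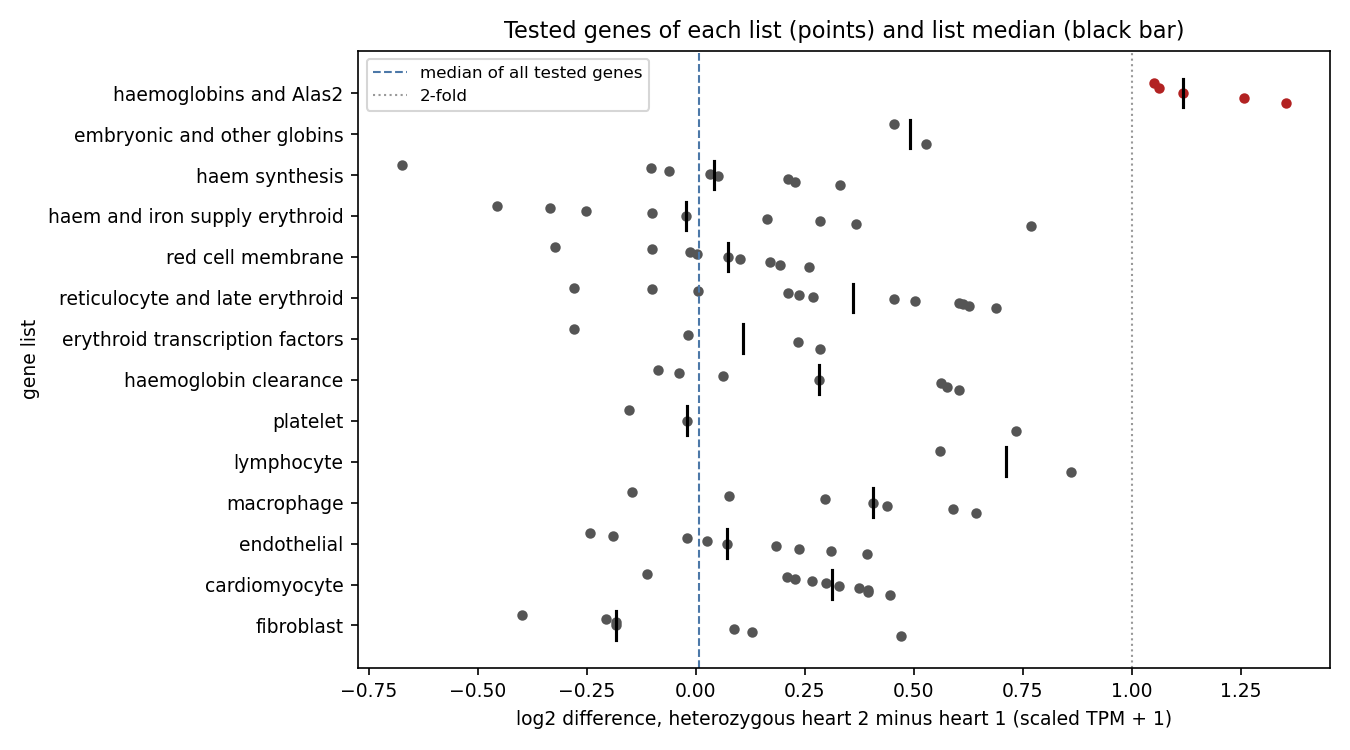
Log2 difference of scaled TPM + 1 between heterozygous hearts 2 and 1 for every tested gene (points) of each gene list, with the list's median as a black bar, the median of all tested genes as a dashed line and 2-fold as a dotted line; the neutrophil list had no tested gene. The 5 haemoglobin and *Alas2* points are the only ones past 2-fold, and the list with the next highest median is the lymphocyte markers, with 2 genes and a median of 0.71.

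The globin mRNAs are short, and short transcripts as a whole differed between the heterozygous hearts. With the members left out, the median log2 difference, heterozygous heart 2 minus heart 1, was 0.17 over 188 genes whose longest annotated transcript was under 500 bases, 0.35 over 237 genes from 500 to below 750 bases, 0.32 over 321 genes from 750 to below 1000 bases and 0.22 over 1741 genes from 1000 to below 2000 bases. It was 0.03 over 3987 genes from 2000 to below 4000 bases and −0.15 over 3552 longer genes. Between the wild-type hearts the same medians lay between −0.03 and 0.03. The coding transcripts used here for the 4 globins, 554 to 703 bases long, would fall in the bin with the highest median. In that bin 6 of 237 genes passed 2-fold (2.53%), beside 27 of 188 (14.4%) in the bin below. The coding transcript of *Alas2*, at 2037 bases, would fall in a bin with a median of 0.03. These lengths are of 1 coding transcript per member, which need not be its longest annotated transcript, the measure used for the bins. Among 500 genes with a mean of at least 50 TPM, members left out, the median was 0.27 and 4 passed 2-fold, *Gm10177*, *Gm29216*, *Dbp* and *Mlf1*. The part of transcript length in the haemoglobin difference was not tested.

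**Figure D5:**
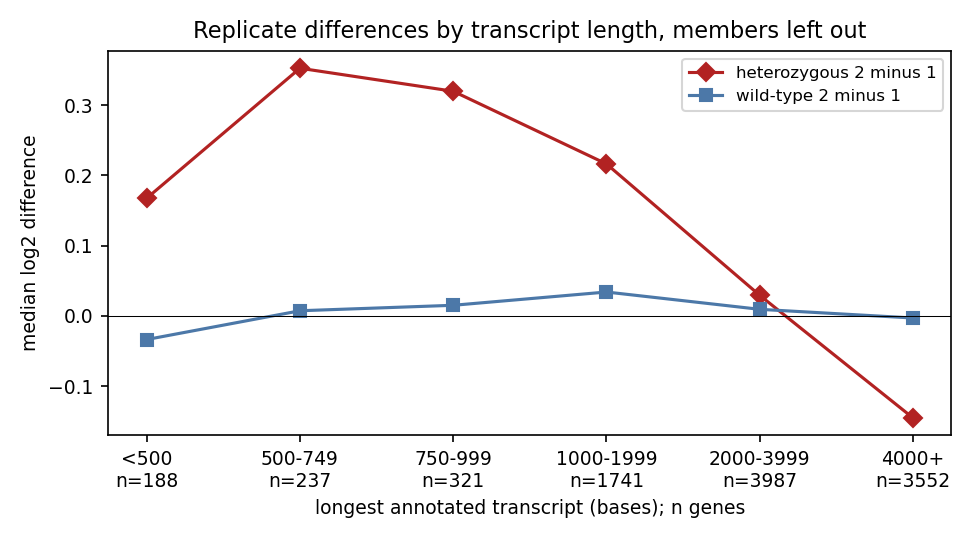
Median log2 difference between hearts of one genotype, heart 2 minus heart 1, by the length of the longest annotated transcript, with the 5 members left out and the number of genes under each bin. The heterozygous line goes from 0.35 in the bin from 500 bases to −0.15 at 4000 bases and more, while the wild-type line stays near 0.

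The genes whose pattern over the 4 hearts was most like that of the members were found by the Euclidean distance between their centred log2 values and the mean of the members, over 4 libraries. The nearest was *Retreg2* at 3.62, 4.63, 2.60 and 7.48 TPM, with a distance of 0.04, where the members themselves lay at 0.085 to 0.26. It was followed by *H2-Q7*, a class I histocompatibility gene, at 5.99, 7.62, 4.74 and 13.3 TPM, then by *Catip*, *Stmn2*, *Nol7*, *Tmem141*, *Csrp2* and *Ppp2r1a*, with distances of 0.13 to 0.22. *Nol7* stood at 22.9, 25.6, 15.6 and 36.4 TPM and *Ppp2r1a*, the scaffold subunit of protein phosphatase 2A, at 30.99, 35.1, 19.2 and 45.8 TPM. None of these 8 genes belongs to the erythroid lists, and 4 libraries leave little to tell one such profile from another.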

How the data were processed

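RNA-seq libraries of 4 hearts (2 *Ctcf* heterozygous, 2 wild type) were grouped by genotype as labelled. Per the submitters' processing notes, the authors trimmed reads with Trim Galore, aligned them to mm10 with STAR, quantified genes with RSEM and tested counts with DESeq2, and they deposited TPM values for 55401 genes. TPM keep no read totals, so no count model was fitted and no counting interval or detection limit is given, and limma took the place of the authors' test. Library factors were medians of ratios over genes with a mean of at least 1 TPM and no 0. Then lmFit and eBayes with a trend (limma 3.58.1, R 4.3.3) were run on log2(TPM / factor + 1) for 10036 genes with a mean of at least 1 TPM, with Benjamini-Hochberg adjustment, two-sided. The pseudocount understates changes of low genes. Sums and ratios were compared by exact permutation over libraries (Python 3.11.15). The table held 4 sample columns and 0 were left unused. Lengths, coordinates and copy comparisons came from GENCODE M21, of which the authors' release may differ, and promoters from RefSeq.

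The members and gene lists were chosen with earlier results of these data known. From each list the tested gene with the highest mean TPM and those with the largest rise and fall are named, together with the members, *Ctcf* and the 8 genes nearest in profile. Some genes that this rule names are not reported here. Genes listed at or near 0, *Bpgm*, *S100a9* and the abundant genes past 2-fold were named after their values were seen. Alternatives were other pseudocounts, filters, scalings and call rules, a replicate block, no trend and leaving out each library. The fit was tested on simulated data.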

Additional observations from a re-analysis of the deposited data

How the results depend on the processing

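No alternative brought a member past the threshold, and the difference of each stayed positive except where named here. On the deposited TPM the log2 difference of heterozygous minus wild type was −0.0014 for *Hbb-bt* and −0.047 for *Alas2*. With mitochondrial genes removed it was 0.27 for *Hba-a1*, 0.30 for *Hba-a2*, 0.20 for *Hbb-bs*, 0.11 for *Hbb-bt* and 0.002 for *Alas2*. Leaving out 1 library at a time gave −0.025 to 1.23 for *Hba-a1*, 0.07 to 1.19 for *Hba-a2*, 0.002 to 1.07 for *Hbb-bs*, −0.24 to 1.12 for *Hbb-bt* and −0.27 to 0.80 for *Alas2*, each lowest without heterozygous heart 2 and highest without heterozygous heart 1, and the log2 difference of the globin sum ranged from −0.51 to 0.77. It was −0.02 without wild-type heart 1. The *Hba-a1* share differed by −1.48 to 0.72 percentage points, the *Hbb-bs* share by −0.39 to 1.45, the alpha to beta ratio by 0.06 to 0.13 and *Alas2* per globin by −0.42 to −0.11 on the log2 scale. The count of called genes, 2 in the reported fit, was 4 with a pseudocount of 0.1, 0 with no filter on low values, 13 on the deposited TPM, 14 with mitochondrial genes removed and 10 to 25 leaving out 1 library. A limma fit blocked on replicate number (replicate block) called 10 genes and no member. The numbers are not said to pair the mice, and deviations of same-numbered libraries correlated at 0.10. No value is given for *Alas2* with a mean of at least 5 TPM, since it was not tested there. Quantile normalization left 2 of 5 members at an unadjusted p below 0.05, beside 12.6% of tested genes, and 0 called. The causes were not tested. TPM without read totals leave the depth behind *Alas2* and the rarer transcripts unknown.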
